A study of Homo sapiens with 25 samples.

Results

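The integrated stress response is started by 4 kinases that phosphorylate the alpha subunit of translation initiation factor eIF2, and it is wired to upstream sensors of mitochondrial, endoplasmic reticulum and amino acid stress. Its parts followed here are 10 genes chosen by their role: the kinase genes EIF2AK1 (HRI), EIF2AK2 (PKR), EIF2AK3 (PERK) and EIF2AK4 (GCN2), the mitochondrial relay OMA1 and DELE1, the GCN2 activator GCN1, the substrate gene EIF2S1, the eIF2B subunit gene EIF2B5 and the phosphatase subunit gene PPP1R15B. They are 10 of 60179 gene identifiers in the deposited expression table. All 10 were among the 13753 genes that passed a minimum mean level of 1 TPM (a length-corrected share of the transcripts in a library) over the libraries, and their own means ran from 15.5 to 160 TPM.

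The study exposed HEC-1A, an established epithelial cell line from an endometrial adenocarcinoma with the genotype label WT, to THC, the main psychoactive cannabinoid of cannabis. RNA was measured in 3 untreated libraries, 3 libraries after 24 h of 20 µM THC and 3 after 72 h of 20 µM THC. Open chromatin was mapped by ATAC-seq in 3 libraries of each of the same conditions, and the promoter mark H3K4me3 by CUT&RUN in 3 untreated and 3 THC libraries (20 µM, with no duration in the labels). All groups come from 1 cell line. The replicates are labelled biological without a word on whether each was its own culture, and the p-values therefore cover the scatter among these libraries, possibly only a technical one. The untreated samples carry no time label, so time in culture and THC cannot be told apart. Their titles name no vehicle, so any solvent given with THC cannot be told apart from it either. Both THC times were compared with the same 3 untreated libraries.

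Phosphorylated eIF2 blocks its own exchange factor, eIF2B, which lowers most protein synthesis while the mRNA of the transcription factor ATF4 is translated more. Each kinase has its own trigger: HRI answers to loss of haem and to DELE1 released from mitochondria, PKR to double-stranded RNA, PERK to unfolded protein in the endoplasmic reticulum, and GCN2 to uncharged tRNA and stalled ribosomes. Activity is set largely by phosphorylation, which RNA levels do not show.

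The sequences in front of 3 of these genes are shown because letters of known stress or interferon motifs lie in them, or because the gene moved most. Each is the 250 bases before and 50 after the RefSeq start site on GRCh38.p14, written 5′ to 3′ along the gene, with motif matches on either strand in capitals. In EIF2AK3 (chr2:88627415-88627714, minus strand) the capitals are 4 CCAAT boxes (CCAAT, or ATTGG on the other strand). In EIF2AK2 (chr2:37156931-37157230, minus strand) they are 2 CCAAT boxes, the kinase conserved sequence (the run of capitals after the CCAAT boxes) and, after it, a match to the interferon-stimulated response element, searched as GAAANN directly followed by GAAA. In PPP1R15B (chr1:204411768-204412067, minus strand) they are TGATGNAA, the element that ATF4 with a C/EBP partner can bind, and 1 CCAAT box.
EIF2AK3: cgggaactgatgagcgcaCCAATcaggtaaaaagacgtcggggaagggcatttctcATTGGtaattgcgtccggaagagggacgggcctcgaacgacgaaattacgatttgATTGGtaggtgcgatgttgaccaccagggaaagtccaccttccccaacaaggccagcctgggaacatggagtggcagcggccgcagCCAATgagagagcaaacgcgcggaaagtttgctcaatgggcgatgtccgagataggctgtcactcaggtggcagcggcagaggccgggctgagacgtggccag
EIF2AK2: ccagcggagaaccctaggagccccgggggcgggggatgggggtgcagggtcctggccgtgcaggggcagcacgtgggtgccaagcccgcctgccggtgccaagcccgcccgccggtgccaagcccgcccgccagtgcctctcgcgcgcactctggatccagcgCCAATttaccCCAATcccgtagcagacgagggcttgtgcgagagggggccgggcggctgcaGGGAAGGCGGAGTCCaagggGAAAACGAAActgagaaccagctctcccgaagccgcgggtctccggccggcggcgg
PPP1R15B: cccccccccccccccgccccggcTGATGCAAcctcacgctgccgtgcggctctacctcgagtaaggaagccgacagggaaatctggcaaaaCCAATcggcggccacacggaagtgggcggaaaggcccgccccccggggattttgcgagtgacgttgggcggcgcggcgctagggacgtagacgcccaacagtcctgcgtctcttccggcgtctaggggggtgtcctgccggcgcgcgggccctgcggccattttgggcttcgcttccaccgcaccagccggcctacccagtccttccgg

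Of 35116 RefSeq promoters of that length, 34.6% held a CCAAT box, 3.57% the response element, 3.62% TGATGNAA and 0.0028% (1 promoter, that of EIF2AK2) the kinase conserved sequence. The kinase conserved sequence was searched as a long fixed run with no free letter, so its rarity is no result about EIF2AK2. Counted from the start site as position 0, the EIF2AK2 kinase conserved sequence ran from -26 to -12 and its response element, GAAAACGAAA, from -6 to 3. The PPP1R15B match, TGATGCAA, ran from -227 to -220. DELE1 held 1 CCAAT box, from -55 to -51. The endoplasmic reticulum stress element (CCAAT, then any 9 bases, then CCACG), the core TGACGTGG, the cyclic AMP element TGACGTCA and the ETS site CCGGAAGT had no match, on either strand, in the 9 members with an entry in the promoter table. For EIF2AK3 the start site used, chr2:88627464, lies inside the annotated gene span, which reaches 88628145. The letters in front of that outer end were not searched. CCAAT also opens the endoplasmic reticulum element, and no matches shown here overlap one another. A match is a description of letters and not of binding.

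In untreated cells the members spanned a wide range of RNA levels per transcript length. EIF2S1 was highest at 197 ± 12.99 TPM (SD, n = 3), followed by EIF2AK1 at 114 ± 7.77 TPM, and EIF2AK3 was lowest at 7.12 ± 0.281 TPM. Every neighbour in the order EIF2S1, EIF2AK1, DELE1, EIF2B5, GCN1, EIF2AK2, PPP1R15B, OMA1, EIF2AK4, EIF2AK3 was apart from the next without overlap between libraries. The order changed with THC: EIF2AK3 rose from the tenth place to the eighth at 72 h, and DELE1 passed EIF2AK1 at 24 h. EIF2AK3 and OMA1 overlapped at 24 h, as did EIF2B5 with GCN1 and OMA1 with EIF2AK4 at 72 h. In these bulk samples fewer cells with an mRNA and less of it per cell cannot be told apart.

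**Figure D1:**
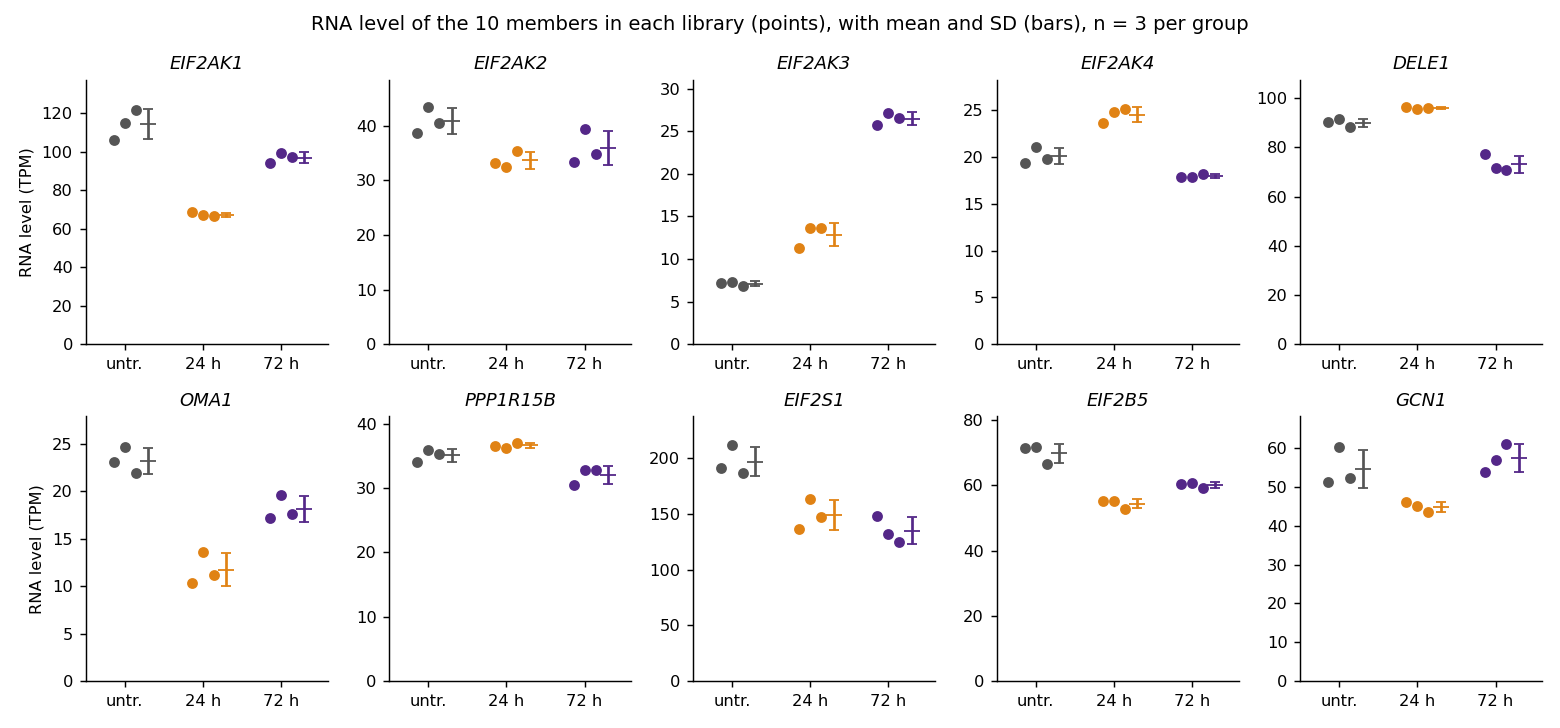
RNA level in TPM of each of the 10 genes (vertical axes, each from 0) in untreated cells and after 24 h and 72 h of 20 µM THC. Points are libraries and the bars beside them the mean and SD of 3; EIF2AK3 climbs from 7.12 to 26.5 TPM while EIF2AK1 and OMA1 dip at 24 h.

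At 24 h, 2 of the 10 genes were higher (EIF2AK3 and EIF2AK4), 6 were lower (EIF2AK1, EIF2AK2, OMA1, EIF2S1, EIF2B5 and GCN1) and 2 were not called (DELE1 and PPP1R15B). A call is an adjusted p below 0.05 from limma on log2(TPM + 1), with Benjamini-Hochberg adjustment over all 13753 genes. Such calls were common: 76.7% of all tested genes were called, 25% higher and 51.7% lower. At 72 h only EIF2AK3 was higher, 8 were lower and GCN1 was not called, against 73.1% of all genes called, 40.1% higher and 33% lower. The median log2 fold change of the 10 was -0.27 at 24 h and -0.20 at 72 h, and that of all tested genes was -0.23 and 0.06. The libraries of the 10 genes did not overlap with untreated for 10 of 10 at 24 h (78.6% of all tested genes) and for 8 of 10 at 72 h (76.6%).

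TPM values are shares of a library, and the whole distribution moved between the groups. Subtracting each library's median of the tested genes adds 0.22 to a log2 fold change at 24 h, takes 0.09 from one at 72 h, and takes 0.30 from one between 72 h and 24 h. With that centring 4 members were higher and 4 lower at 24 h (36% and 37.3% of all genes), and 1 was higher and 8 lower at 72 h (34.8% and 38.9%). Centred changes from untreated are given beside the TPM values for each member.

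**Figure D2:**
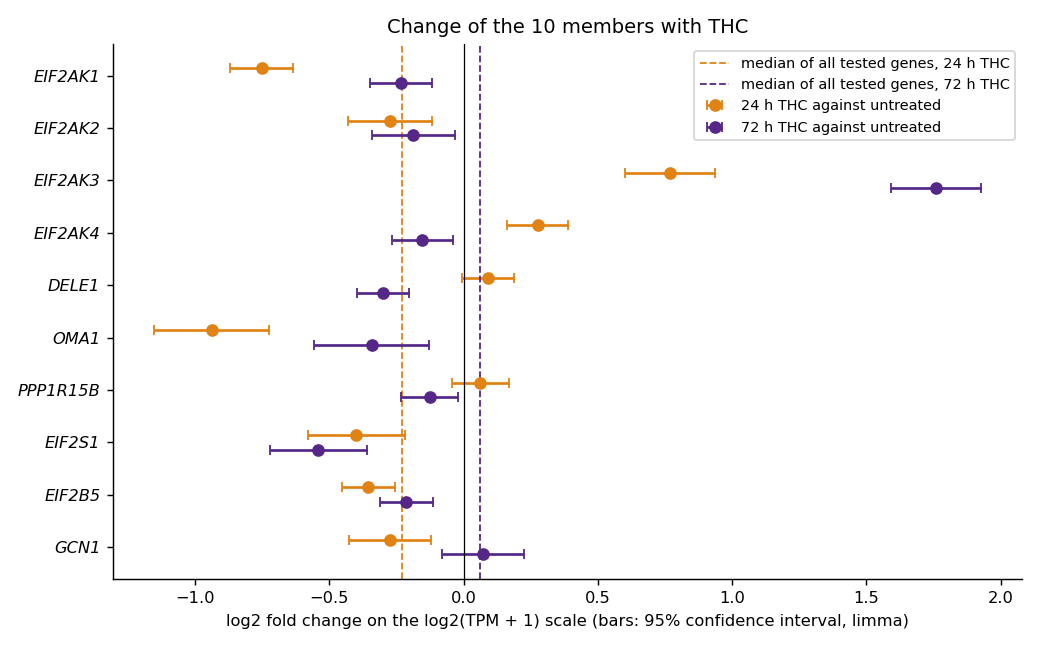
Log2 fold change on the log2(TPM + 1) scale (horizontal axis) of the 10 genes at 24 h (orange) and 72 h (purple) of THC against untreated, from limma. Points are estimates, bars 95% confidence intervals and dashed lines the medians of all tested genes, -0.23 and 0.06; EIF2AK3 lies to the right at both times.

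PERK spans the endoplasmic reticulum membrane and is held inactive by the chaperone BiP. Its gene EIF2AK3 had 7.20, 7.35 and 6.80 TPM in untreated cells, 11.3, 13.7 and 13.6 TPM at 24 h, and 25.7, 27.1 and 26.6 TPM at 72 h. The 3 groups stood apart in 3 steps with no overlap. The mean was 1.81 times the untreated mean at 24 h and 3.72 times at 72 h. On the log2(TPM + 1) scale EIF2AK3 rose by 0.77 (SE 0.0753, adjusted p = 5.89e-06, limma) at 24 h and by 1.76 (adjusted p = 1.60e-08) at 72 h, or by 0.99 and 1.67 after centring. It also rose between 24 h and 72 h, by 0.99 (adjusted p = 1.53e-06), or 0.69 after centring. Of all tested genes, 1154 rose more at 24 h and 243 at 72 h. EIF2AK3 overlaps the antisense gene EIF2AK3-AS1 and the divergent EIF2AK3-DT. Whether quantification used the strand of the reads is not stated, so part of a level could belong to such partners. EIF2AK3-DT itself had 1.16 ± 0.133, 0.754 ± 0.0682 and 1.79 ± 0.148 TPM in the same order.

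HRI, the haem-regulated kinase, is the partner of DELE1. EIF2AK1 had 106, 115 and 122 TPM untreated, 68.4, 67.2 and 66.3 TPM at 24 h, and 94.2, 99.4 and 97.1 TPM at 72 h. All 24 h libraries were below all others, and the 72 h libraries lay between. EIF2AK1 fell by 0.75 on the log2 scale (SE 0.0518, adjusted p = 4.22e-07, limma) at 24 h and by 0.23 (adjusted p = 0.00217) at 72 h, with centred changes of -0.53 and -0.32. From 24 h to 72 h it rose by 0.52 (adjusted p = 9.80e-06), or 0.21 after centring. The gene shares its locus with AIMP2 and ANKRD61, which overlap its span on chr7:6022247-6059175.

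PKR, encoded by EIF2AK2, is itself an interferon-induced gene. EIF2AK2 had 38.7, 43.5 and 40.6 TPM untreated, 33.1, 32.5 and 35.4 TPM at 24 h, and 33.4, 39.4 and 34.8 TPM at 72 h. The 24 h libraries were all below untreated, while 1 library at 72 h reached into the untreated range. It fell by 0.27 (adjusted p = 0.00471, limma) at 24 h and by 0.19 (adjusted p = 0.0335) at 72 h. After centring the 24 h change was -0.06, not called, and the 72 h change was -0.27, called. In TPM the 72 h call was lost without untreated replicate 2 or 3, or without 72 h replicate 1 or 3, with changes from -0.19 to -0.14. The 72 h and 24 h levels overlapped and differed by 0.09 (95% interval -0.07 to 0.24) in TPM, not called, and by -0.22 after centring (adjusted p = 0.0135, limma), called lower.

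GCN2 senses uncharged tRNA, and GCN1 brings it to the ribosome. EIF2AK4 had 19.4, 21.0 and 19.8 TPM untreated, 23.6, 24.8 and 25.1 TPM at 24 h, and 17.8, 17.8 and 18.2 TPM at 72 h. It stood above untreated at 24 h and below untreated at 72 h, without overlap. It rose by 0.28 (SE 0.0510, adjusted p = 0.000596, limma) at 24 h and fell by 0.15 (adjusted p = 0.0196) at 72 h, with centred changes of 0.49 and -0.24. The difference between the times, 72 h minus 24 h, was -0.43 (adjusted p = 3.23e-05), or -0.74 after centring. The call at 72 h was lost without untreated replicate 2 (-0.12) or without 72 h replicate 2 (-0.15).

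GCN1 had 51.4, 60.2 and 52.2 TPM untreated, 46.1, 45.0 and 43.5 TPM at 24 h, and 53.9, 57.0 and 61.1 TPM at 72 h. The 24 h libraries were lowest, and the 72 h libraries overlapped with untreated. It fell by 0.27 (adjusted p = 0.00401, limma) at 24 h, a call not made after centring (-0.06). At 72 h the difference from untreated was 0.07 (95% interval -0.08 to 0.22), or -0.02 after centring, called on neither scale. From 24 h to 72 h GCN1 rose by 0.35 (adjusted p = 0.00107, limma) in TPM, with a centred change of 0.04 that was not called. GCN1 mRNA was 2.72 ± 0.125 times EIF2AK4 mRNA per length in untreated cells, 1.83 ± 0.110 times at 24 h and 3.20 ± 0.169 times at 72 h (SD, n = 3), with no overlap between groups.

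The share of each kinase within the summed TPM of the 4 kinase genes does not depend on what else is in a library. EIF2AK3 made up 3.91% ± 0.299 (SD, n = 3) of that sum untreated, 9.29% ± 0.890 at 24 h and 14.9% ± 0.150 at 72 h. EIF2AK1 stayed the most abundant, with 62.6% ± 1.58, 48.7% ± 1.45 and 54.7% ± 0.514. EIF2AK4 held 11.02% ± 0.467, 17.7% ± 0.346 and 10.1% ± 0.387, and EIF2AK2 held 22.4% ± 0.903, 24.3% ± 0.853 and 20.2% ± 1.05. At 72 h PERK mRNA had a larger share than GCN2 mRNA in every library. The sum itself was 182 ± 9.51 TPM untreated, 138 ± 2.02 at 24 h and 177 ± 6.34 at 72 h.

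**Figure D3:**
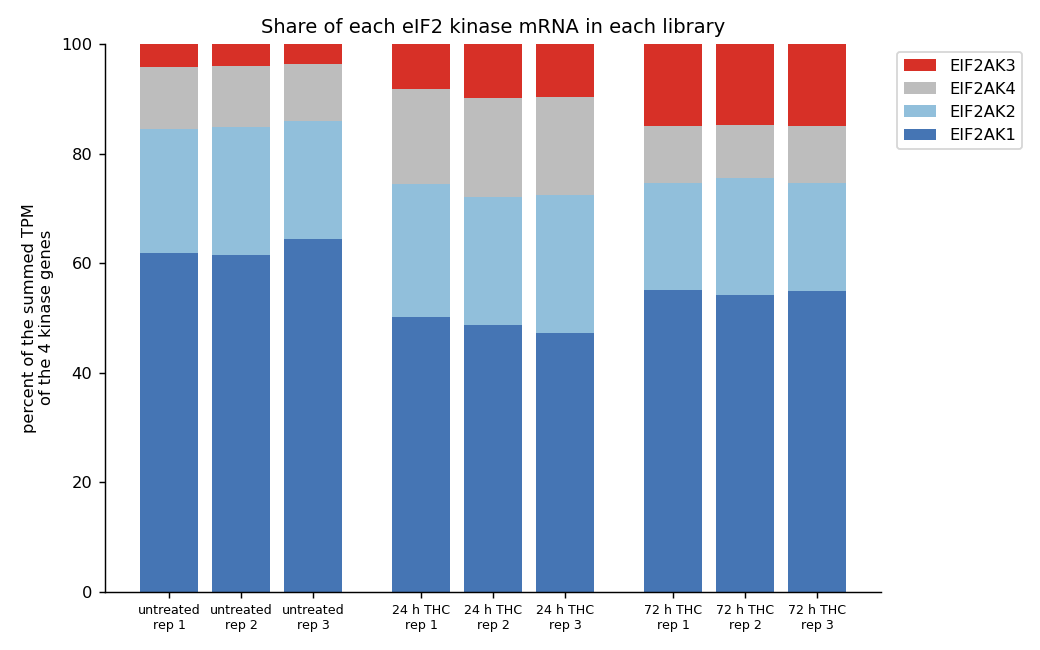
Percent of the summed TPM of the 4 kinase genes (vertical axis, 0 to 100) taken by each kinase in each of the 9 RNA libraries (bars). The EIF2AK3 segment widens from a mean of 3.91% in untreated libraries to 14.9% at 72 h.

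OMA1 is an inner membrane protease that, when mitochondria are stressed, cuts DELE1 so that it can reach HRI in the cytosol. OMA1 had 23.1, 24.6 and 21.96 TPM untreated, 10.3, 13.7 and 11.2 TPM at 24 h, and 17.2, 19.6 and 17.6 TPM at 72 h. The groups did not overlap, and the 24 h libraries were lowest. OMA1 fell by 0.94 (SE 0.0960, adjusted p = 8.18e-06, limma) at 24 h and by 0.34 (adjusted p = 0.00850) at 72 h, with centred changes of -0.72 and -0.43. It rose by 0.59 (adjusted p = 0.000281) between the times, or 0.29 after centring. DAB1, which overlaps OMA1, had a mean of at most 0.0176 TPM in any group. Against YME1L1, the other inner membrane protease that cuts OPA1, the OMA1 level was 0.192 ± 0.00878 untreated, 0.0970 ± 0.0131 at 24 h and 0.144 ± 0.0108 at 72 h.

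DELE1 had 90.3, 91.6 and 88.4 TPM untreated, 96.4, 95.8 and 95.9 TPM at 24 h, and 77.2, 71.5 and 70.6 TPM at 72 h. The 24 h libraries were highest and the 72 h libraries lowest, without overlap. The 24 h difference of 0.09 (95% interval -0.01 to 0.19, adjusted p = 0.0780, limma) was not called, though after centring it was called higher at 0.31. At 72 h DELE1 fell by 0.30 (SE 0.0432, adjusted p = 0.000119), or by 0.39 after centring. Its 72 h minus 24 h difference was -0.39 (adjusted p = 2.04e-05, limma), or -0.69 after centring. EIF2AK1 mRNA was 1.27 ± 0.101 times DELE1 mRNA per length untreated, 0.701 ± 0.00862 times at 24 h and 1.33 ± 0.0947 times at 72 h.

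EIF2S1 encodes the alpha subunit of eIF2 that all 4 kinases phosphorylate. EIF2S1 had 192, 211 and 187 TPM untreated, 137, 163 and 147 TPM at 24 h, and 148, 132 and 125 TPM at 72 h. Both THC groups were below untreated and overlapped with each other. EIF2S1 fell by 0.40 (SE 0.0811, adjusted p = 0.00114, limma) at 24 h and by 0.54 (adjusted p = 0.000154) at 72 h, or by 0.18 and 0.63 after centring. The change from 24 h to 72 h was -0.14 (95% interval -0.32 to 0.04) in TPM, not called, and -0.45 after centring (adjusted p = 0.000428, limma), called lower. EIF2S1 lies within a span that GPHN also overlaps.

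EIF2B5 encodes the catalytic subunit of eIF2B, the exchange factor that phosphorylated eIF2 blocks. EIF2B5 had 71.3, 71.7 and 66.5 TPM untreated, 55.2, 55.1 and 52.8 TPM at 24 h, and 60.5, 60.7 and 59.0 TPM at 72 h. The 3 groups did not overlap. EIF2B5 fell by 0.35 (SE 0.0443, adjusted p = 3.61e-05, limma) at 24 h and by 0.21 (adjusted p = 0.00144) at 72 h, with centred changes of -0.14 and -0.30. Its direction between 24 h and 72 h depended on the scale: 0.14 (adjusted p = 0.0151) in TPM, where the call was lost without 24 h replicate 3 (0.12), and -0.16 after centring. EIF2B5 mRNA stood at 0.356 ± 0.0166 of EIF2S1 mRNA untreated, 0.367 ± 0.0340 at 24 h and 0.447 ± 0.0346 at 72 h.

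PPP1R15B (CReP) directs protein phosphatase 1 to eIF2 in unstressed cells, and its relative PPP1R15A (GADD34) does so under stress. PPP1R15B had 34.0, 36.0 and 35.3 TPM untreated, 36.6, 36.3 and 37.1 TPM at 24 h, and 30.5, 32.9 and 32.8 TPM at 72 h. The differences were small beside the level, with the 72 h libraries lowest. At 24 h the difference was 0.06 (95% interval -0.04 to 0.17), not called in TPM and called higher after centring at 0.28. At 72 h PPP1R15B fell by 0.13 (adjusted p = 0.0338, limma), a call lost in a fit of those 2 groups alone, without untreated replicate 2 or 3, and without 72 h replicate 1 (changes from -0.13 to -0.09). After centring the 72 h change was -0.21, called. Between the times PPP1R15B fell by 0.19 (adjusted p = 0.00473, limma), or by 0.49 after centring. PPP1R15A had 39.5 ± 2.15 TPM untreated, 822 ± 11.8 at 24 h and 709 ± 10.7 at 72 h (SD, n = 3). The ratio of PPP1R15A to PPP1R15B was 1.13 ± 0.0947 untreated, 22.4 ± 0.233 at 24 h and 22.1 ± 0.884 at 72 h.

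Between 72 h and 24 h of THC, 5 members were higher (EIF2AK1, EIF2AK3, OMA1, EIF2B5 and GCN1), 3 were lower (EIF2AK4, DELE1 and PPP1R15B) and 2 were not called, with 8 of 10 not overlapping (73.9% of all tested genes), against 72.6% of all genes called, 54.9% higher and 17.8% lower. After centring 3 were higher (EIF2AK1, EIF2AK3 and OMA1) and 6 lower (30.4% and 37.9% of all genes). EIF2AK1 and OMA1 were lowest at 24 h on both scales, and EIF2AK3 rose at each step. For EIF2AK4 and DELE1 the 72 h level was below that at 24 h on both scales.

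The genes around each sensor, from lists drawn up by function, moved in mixed directions, except that no PERK neighbour was lower at 72 h in TPM. Their counts are to be read against all tested genes, of which 25% were higher and 51.7% lower at 24 h, and 40.1% and 33% at 72 h (36% and 37.3%, and 34.8% and 38.9%, after centring). Of 13 PERK neighbours (endoplasmic reticulum stress sensors and regulators), 7 were higher and 5 lower at 24 h, and 9 were higher and 0 lower at 72 h, with medians of 0.23 and 0.67 beside -0.23 and 0.06 for all genes. After centring the split was 8 and 3 at 24 h and 9 and 1 at 72 h. HSPA5 (BiP), which restrains PERK, rose by 2.11 and 2.01 on the log2 scale. The parallel sensor ERN1 (IRE1) rose by 1.67 and 1.60, and its splicing target XBP1 by 1.89 and 2.13. DNAJC3 (p58IPK), an inhibitor of PERK and PKR, rose by 0.45 and 1.15, while ATF6, the other sensor, fell by 0.41 at 24 h and had a change of -0.09 at 72 h that was not called (-0.17 after centring, called).

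Of 17 PKR neighbours tested of 19, which sense double-stranded RNA or carry interferon signals, 8 were higher and 8 lower at 24 h (9 and 3 after centring), and 10 were higher and 4 lower at 72 h (9 and 4), with medians of 0.10 and 0.26. The largest rises differed between the times. OASL, an interferon-induced antiviral gene, rose by 2.18 at 24 h and differed by 0.06 at 72 h, not called. The receptor gene RIGI rose by 1.04 and 0.26, and its relative DHX58 by 1.35 and 0.47. The transcription factor genes IRF1, IRF9 and STAT2 rose by 1.49, 1.41 and 1.07 at 72 h. PRKRA, the activator of PKR, fell by 0.17 at 24 h in TPM (0.05 after centring, not called), and ADAR, which edits double-stranded RNA, fell by 0.23 at 24 h (-0.01 after centring, not called).

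Of 15 GCN2 neighbours (ribosome collision and stalling factors), 6 were higher and 3 lower at 24 h (10 and 1 after centring), and 10 were higher and 3 lower at 72 h (10 and 3), with medians of 0.12 and 0.46. MAP3K20 (ZAK), the kinase that detects collided ribosomes, rose by 0.77 and 0.64, and EDF1, which binds collided ribosomes, by 0.30 and 0.71. IMPACT, which competes with GCN2 for GCN1, had a change of 0.12 at 24 h that was not called (0.33 after centring, called) and rose by 0.60 at 72 h. ASCC3, a helicase that splits collided ribosomes, fell by 0.81 and 0.37. Of 16 tested of 18 genes of amino acid sensing by mTORC1, 5 were higher and 5 lower at 24 h (8 and 2 after centring), and 7 were higher and 3 lower at 72 h (7 and 4), with medians of -0.03 and 0.17. The leucine sensor gene SESN2 rose by 2.63 and 2.52, and MTOR fell by 0.92 at 24 h.

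Of 19 neighbours of OMA1 and DELE1 in inner membrane quality control, 2 were higher and 11 lower at 24 h (6 and 6 after centring), and 4 were higher and 9 lower at 72 h (3 and 11). Their medians were -0.16 and -0.18 beside -0.23 and 0.06 for all genes. At 24 h the 11 of 19 lower were near the 51.7% of all genes. At 72 h 9 of 19 were lower beside 33% of all genes, or 11 of 19 beside 38.9% after centring. This difference was not tested. YME1L1 was not called in TPM at 24 h (adjusted p = 0.966, limma; called higher at 0.22 after centring) or at 72 h (0.05), and OPA1, the fusion protein gene whose product both proteases cut, fell by 0.20 at 24 h (0.02 after centring, not called) and by 0.47 at 72 h. HSPA9, the mitochondrial HSP70 gene, rose by 0.86 at 24 h. The chaperonin gene HSPD1 fell by 1.03 at 72 h. PINK1, the kinase that marks damaged mitochondria, fell by 0.52 at 24 h (-0.30 after centring, called) and rose by 0.72 at 72 h.

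Of 16 HRI neighbours in haem synthesis and cytosolic chaperones, 6 were higher and 8 lower at 24 h (8 and 7 after centring), and 5 were higher and 9 lower at 72 h (3 and 9), with medians of -0.08 and -0.32. HMOX1, which breaks haem down, rose by 3.68 and 4.28. ABCB10, a mitochondrial transporter linked to haem synthesis, fell by 1.18 at 24 h. HRI depends on the chaperone HSP90. Its gene HSP90AA1 fell by 0.53 at 24 h and by 1.24 at 72 h. The other HSP90 gene listed, HSP90AB1, rose by 0.38 at 24 h and fell by 0.59 at 72 h.

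Of 12 genes listed as subunits and partners of eIF2 and eIF2B, 6 were higher and 4 lower at 24 h (8 and 4 after centring). At 72 h 6 were higher and 5 lower (5 and 5), and the medians were 0.08 and 0.08. The list includes the members EIF2S1 and EIF2B5, which were lower at both times. It also includes EIF2A (0.89 and 0.76) and EIF2D (0.16 and 0.42), which were higher at both times and are subunits of neither complex. The subunits of each complex did not move alike. EIF2S2 and EIF2S3, the beta and gamma partners of EIF2S1, rose by 0.58 and 0.55 at 24 h and by 0.15 and 0.24 at 72 h, against the falls of EIF2S1. The EIF2S2 call at 72 h was not made after centring (0.06) or without mitochondrially encoded genes (0.05). Of the other eIF2B subunits, EIF2B1 fell by 0.51 and 0.26. EIF2B2 rose by 0.36 at 24 h, EIF2B4 rose by 0.33 at 72 h, and EIF2B3 fell by 0.48 at 72 h. CDC123, which assembles eIF2, fell by 0.64 and 0.86. In the phosphatase list of 5, which includes the member PPP1R15B, 1 gene was higher and 3 lower at 24 h (2 and 2 after centring). At 72 h 1 was higher and 4 lower (1 and 4 after centring). The catalytic subunit gene PPP1CA fell by 0.78 and 0.68 and PPP1R15A rose by 4.35 and 4.13.

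Downstream of the kinases, 19 of the 21 tested output genes of the response (of 23 listed) were higher and 2 lower at 24 h. At 72 h 20 were higher and 0 lower. After centring the split was 19 and 2 at 24 h and 20 and 1 at 72 h. The list medians were 1.81 and 1.75 beside -0.23 and 0.06 for all genes. ATF4 rose by 1.69 and 1.63 on the log2 scale. Its targets DDIT3 (CHOP) and ATF3 rose by 4.60 and 4.74 at 24 h and by 4.12 and 4.58 at 72 h.

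**Figure D4:**
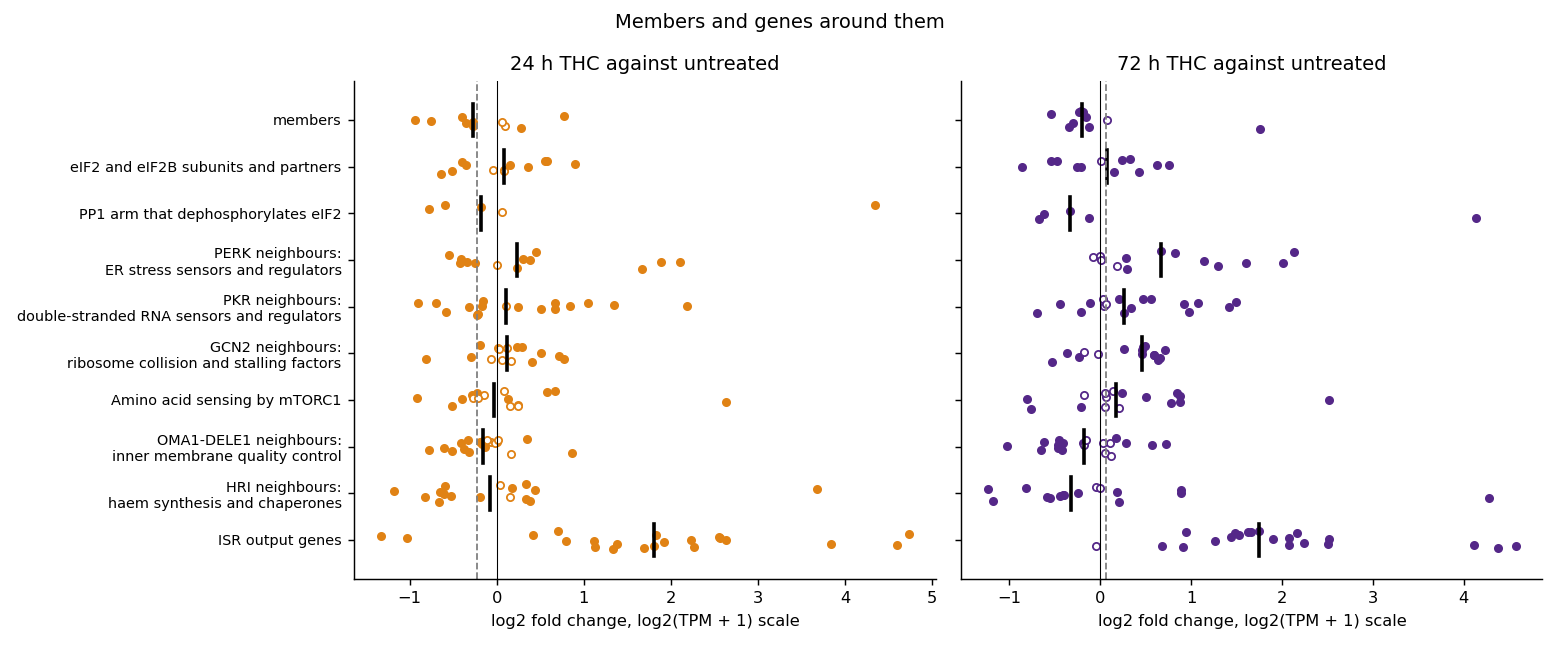
Log2 fold change on the log2(TPM + 1) scale (horizontal axes) of each tested gene in the member list and 9 lists around it, at 24 h (left) and 72 h (right). EIF2S1, EIF2B5 and PPP1R15B are drawn as members and again in the eIF2 and phosphatase lists. Filled points were called, open points were not, black bars are list medians and grey dashed lines the medians of all tested genes; the output genes lie at medians of 1.81 and 1.75, far to the right of the sensor lists.

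The genes most like each kinase over the 9 libraries were found by the root mean square difference of log2(TPM + 1), each taken from its own untreated mean, over 8902 genes with a mean of at least 10 TPM. For EIF2AK3 they were CCDC18-AS1 (0.05), PARP6 (0.07) and POR (0.11), the reductase that feeds electrons to cytochrome P450 enzymes. POR had means of 84.3, 141 and 303 TPM. For EIF2AK1 they were TFB2M (0.04), PAFAH2 (0.05) and TRMT6 (0.05), for EIF2AK2 PHKB (0.05), GPN1 (0.05) and OXSR1 (0.06), and for EIF2AK4 ABI1 (0.05), FEZ2 (0.06) and DNAJA2 (0.06). For DELE1 they were MRPL21 (0.03), GTPBP4 (0.04) and TAGLN2 (0.04). Likeness over 3 conditions is a description, and the low EIF2AK3 level makes the TPM + 1 scale understate its change beside that of an abundant gene.

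At the chromatin level, the 9 members with a RefSeq promoter entry had an ATAC peak within 500 bases of the start site in all 27 gene and library pairs of each of the 3 ATAC groups, and an H3K4me3 peak in all 27 pairs of each H3K4me3 group. In single libraries 67.7% to 86.4% of the promoter entries of all tested genes had such an ATAC peak and 86.2% to 87.0% an H3K4me3 peak, so presence separates these genes little from others. Peaks were called per library and the ATAC lists held 38495 to 150884 peaks, so heights are not compared between libraries. With a minimum -log10 q of 5, the ATAC pairs were 27 untreated, 25 at 24 h and 18 at 72 h. The promoter entries of all tested genes passing the same minimum were fewer too, at 65.9% to 79.6% untreated, 55.0% to 75.4% at 24 h and 22.2% to 70.9% at 72 h by library, so the members' count moved with that of all promoters. The 72 h library with 22.2% also had the shortest list and held 3 of the 9 members. For EIF2AK1, an ATAC region (chr7:6058642-6059397) and an H3K4me3 region (chr7:6056642-6060544), each merged over libraries, covered the upper end of the gene. Every library of the assay had a peak in its region. Whether each single peak reached that end was not computed.

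EIF2AK3, whose RNA rose most, had start-site ATAC peaks of 1004 to 1076 bases untreated, 955 to 1046 bases at 24 h and 929 to 965 bases at 72 h. ATAC widths come from peak lists of unlike length, and no share over all promoters was computed for them. The narrower 72 h peaks are therefore not read as a trait of EIF2AK3. Its H3K4me3 peak was 3513 to 4155 bases wide untreated and 3626 to 4264 bases with THC, with overlap. Inside the gene, about 27 kb from the start, lay another region (chr2:88600157-88600426) with an ATAC peak in 3 of 3 untreated, 3 of 3 24 h and 2 of 3 72 h libraries. An H3K4me3 peak covered it in all 6 libraries, at an authors' fold enrichment of 4.51 to 7.76, where the start-site peak had 34.6 to 52.3.

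In H3K4me3, GCN1 was singled out after its values were seen. In all 3 untreated libraries 1 peak of 10232 to 11041 bases ran from inside GCN1 across its start and over the neighbouring ribosomal protein gene RPLP0 (chr12:120196699-120201111). In all 3 THC libraries the same stretch was listed as a peak of 5503 to 6567 bases at the GCN1 start and another of 4577 to 4587 bases, with a gap of 310 to 342 bases between them inside RPLP0. Among 12410 promoter entries of tested genes with an H3K4me3 peak in every library, 3.3% had narrower peaks in all THC libraries without overlap and 8.82% wider ones. Of the 9 members, GCN1 was narrower, DELE1 was wider (2688 to 2859 bases untreated, 2878 to 3397 bases with THC) and 7 overlapped. The split is a feature of the peak lists, and the signal in the gap was not analysed here. The RPLP0 level was 2256 ± 60.2 TPM untreated, 2679 ± 57.4 at 24 h and 3720 ± 245 at 72 h.

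**Figure D5:**
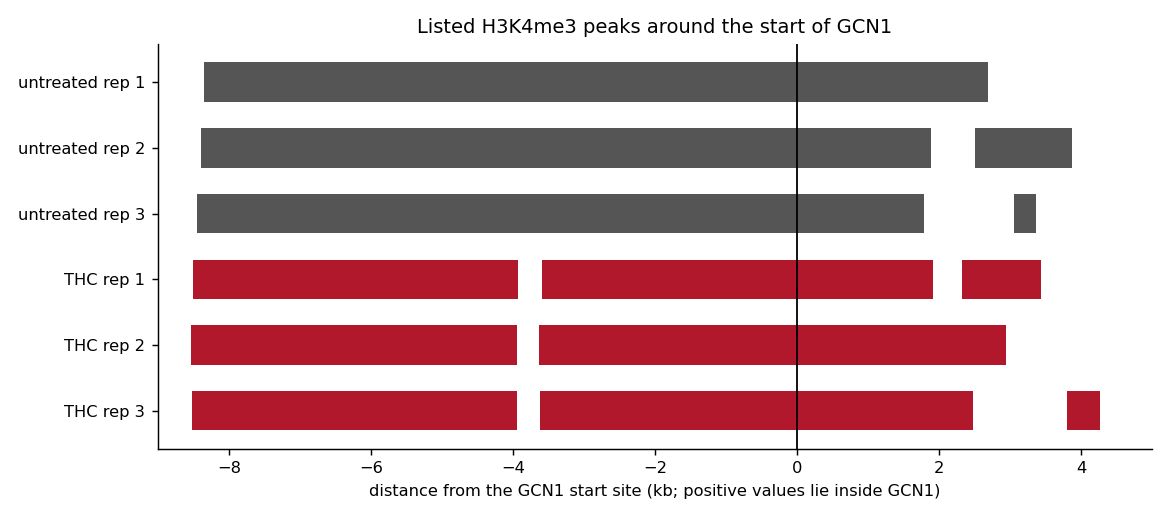
H3K4me3 peaks listed around the start of GCN1 in 3 untreated and 3 THC libraries, drawn by their distance from the start site in kb (horizontal axis; positive values lie inside GCN1). Each bar is a listed peak; the long peak of 10232 to 11041 bases in untreated libraries is listed in 2 pieces in each THC library, with a gap of 310 to 342 bases.

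The libraries matched the labelled epithelial line by markers. All 7 epithelial markers had a mean of at least 1 TPM in every group, with sums of 2554 to 2670 TPM untreated, 4428 to 4492 at 24 h and 3196 to 3442 at 72 h. The 7 stromal markers summed to at most 3.22 TPM and the 5 endothelial markers to at most 0.373 TPM in any library. The 7 immune markers summed to 0.253 to 0.391 TPM untreated, 127 to 137 at 24 h and 29.2 to 39.5 at 72 h, nearly all of it CD68, a lysosomal gene (0.249, 132 and 32.9 TPM), and 3 to 4 of the 7 were at 0 in all libraries of a group. The part of these shifts in the results above was not tested.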

How the data were processed

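RNA levels are TPM values in a deposited table of 9 libraries, each summing to 1000000; the table keeps no counts, so the depth is unknown. Per the submitters' processing notes, the tools included MACS2 2.2.7.1, MACS3, Picard, SAMtools, Bowtie2, FastQC, Trim Galore and Salmon, with GRCh38, and per the labels' protocols the RNA kit was stranded and made from total RNA. No roles are given for them. The deposited ATAC and H3K4me3 peak lists give, per library, the authors' signal fold (ratio) and −log10 q for each peak; the integer score deposited beside them was not used, and ranks and thresholds were used within a list only. The IgG sample was not analysed here.

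Genes averaging 1 TPM or more were fitted as log2(TPM + 1) in limma 3.58.1 (R 4.3.3; eBayes with trend, 3 groups, no block), with Benjamini-Hochberg adjustment and a threshold of 0.05; the script was tested on simulated data. Peaks and promoter letters were read with Python 3.11.15 and pandas 2.3.3, and figures drawn with matplotlib 3.10.9. Alternatives were a pseudocount of 0.1, other filters, median centring, removal of mitochondrially encoded genes, eBayes without trend, 2-group fits, the replicate block and leaving out each library.

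The members, lists and tests were chosen with earlier results of these data known. Beyond the 10 members, the text names up to 3 called genes of largest change per list and comparison, plus fixed partners. Not every gene so chosen is reported here. Values of these genes at the other time, HSP90AB1, the overlapping neighbours and RPLP0 were added after seeing them. Promoter sequences and start sites are RefSeq's (GRCh38.p14), matched by symbol for 9 of 10 members. Intervals are 95% intervals of the limma fit.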

Additional observations from a re-analysis of the deposited data

Results flagged for a closer look

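For 8 of the 10 members the response at 72 h differed from that at 24 h, tested by limma as the 72 h level against the 24 h level, since both responses share the untreated libraries. On the log2(TPM + 1) scale the 72 h minus 24 h difference was positive for EIF2AK3 (0.99), OMA1 (0.59), EIF2AK1 (0.52), GCN1 (0.35) and EIF2B5 (0.14). It was negative for EIF2AK4 (-0.43), DELE1 (-0.39) and PPP1R15B (-0.19). Such a difference was called for 72.6% of all tested genes. Part of this depended on the scale: after median centring GCN1 (0.04) was not called, EIF2B5 turned to -0.16, and EIF2AK2 (-0.22) and EIF2S1 (-0.45) were called lower. The other 6 members kept their direction and their call.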

How the results depend on the processing

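Median centring changed most. It moved the members called higher at 24 h from 2 to 4 and, between 72 h and 24 h, all genes called from 7546 higher and 2445 lower to 4176 and 5217, and members from 5 and 3 to 3 and 6. Among the members and those list genes that are named above, some directions turned with it and were called on at least 1 scale. At 24 h these were HSPD1 (0.086), EIF2B3 (0.18), YME1L1 (0.22), OPA1 (0.020) and PRKRA (0.045). Between 72 h and 24 h they were EIF2AK2 (-0.22), EIF2B5 (-0.16), EIF2B1 (-0.056), EIF2B4 (-0.057) and YME1L1 (-0.25). PRKRA (-0.11), ADAR (-0.029), PPP1CA (-0.21) and XBP1 (-0.068) also turned between those times. Genes named for likeness or as neighbours are not covered. At 72 h GCN1, EIF2B2, PRKRA, ADAR, OASL and YME1L1 turned without a call on either scale, to between -0.08 and -0.02. The cause was not tested. Leaving out each library gave 5 to 8 members lower at 72 h, with 5 without untreated replicate 2, where EIF2AK2, EIF2AK4 and PPP1R15B were no longer called. Of 180 such results for members, 169 kept direction and side of the threshold, 10 lost their call and 1 gained it.

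No pairing by replicate number was seen: deviations correlated at -0.20 to 0.25 between same-numbered libraries (9 pairs) and at -0.24 to 0.22 between others (18 pairs). The labels do not say whether same-numbered libraries were handled together, and these correlations cannot settle it. With the replicate block, 3447 genes were called higher and 7130 lower at 24 h, 5519 and 4558 at 72 h, and no member call changed. The pseudocount of 0.1, the minimum of 5 TPM, eBayes without trend and removal of mitochondrially encoded genes also changed no member call. Without the filter EIF2AK2 was not called at 72 h, and a fit of 2 groups alone called DELE1 higher at 24 h (0.09) and no longer called PPP1R15B at 72 h. TPM has no depth, so precision rests on 3 libraries per group.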
